A study of Mus musculus with 4 samples.

Results

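Tchh, Flg, Lor, Ivl, Sbsn, Krtdap, Rptn and Prr9 are 8 non-keratin genes of the epidermis and of the inner root sheath, the cell layers that mould a growing hair. They were taken by symbol from a table of 20555 genes measured by poly(A) RNA-seq in mouse mammary tumours, and each of the 8 was found there. The genes were chosen by their scaled counts in these 4 libraries, read in the contrast of the 2 groups, so differences between the groups are described for them and not tested. The tumours carried PyMT, the polyoma middle T oncogene, in both groups. Control-PyMT had the genotype PyMT (2 libraries), and MYC-PyMT had S100a8-creRosa26-LSL-MYCPyMT (2 libraries). In that genotype, Cre recombinase is driven by S100a8, a gene known for its expression in neutrophils, and MYC at the Rosa26 locus stands behind a stop cassette flanked by lox sites. By its design the construct turns MYC on in cells that express the Cre and in their progeny. Neither age, sex, tumour site nor which promoter drives PyMT is stated, and no source says whether libraries of a group came from separate mice. The p-values therefore reflect library-to-library spread, possibly technical. The series asks how MYC expression alters PyMT tumours.

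The cornified envelope is the protein shell that replaces the membrane of a keratinocyte as it dies to form the outer skin. Its precursors are crosslinked by transglutaminases, and many of them are encoded side by side in the epidermal differentiation complex, a gene cluster that also holds the S100 genes. Inner root sheath cells harden in a related way, with trichohyalin crosslinked to sheath keratins. Mammary luminal cells are not known for forming either structure, although skin lies next to the gland and mammary tumours can contain squamous areas. In bulk tissue, fewer cells of a type and less RNA per cell cannot be told apart.

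Libraries held 31783846 to 34190913 reads assigned to genes. Krt8, a keratin that marks luminal mammary cells, ran from 22210 to 28747 scaled counts over the 4 libraries, where a scaled count is a read divided by the authors' size factor for the library. The endogenous Myc gene was measured at 1832 and 2820 scaled counts in Control-PyMT and at 3215 and 2815 in MYC-PyMT (limma adjusted p = 0.172). Whether reads of the transgene were counted under this symbol is not stated, and this value does not check the labels. Of the 16725 genes that reached 10 scaled counts in at least 2 libraries, 47.9% differed between the groups at an adjusted p under 0.05, 24.6% lower and 23.3% higher in MYC-PyMT. Group differences were thus common, and the counts below are read against these shares.

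The stretch of 150 bases upstream of the annotated start is shown for 6 of the genes, the 3 with the largest differences between the groups (Tchh, Rptn and Prr9), Ivl as a moderate case, Lor near the detection limit and Sbsn, which was higher in MYC-PyMT. They come from RefSeq on GRCm38.p6 and are written 5′ to 3′ on the strand of the gene, with motif matches in capitals. Tchh lies on the plus strand (chr3:93442180-93442329), as does Rptn (chr3:93393549-93393698). Prr9 (chr3:92123948-92124097), Ivl (chr3:92573736-92573885) and Lor (chr3:92083143-92083292) are on the minus strand, and Sbsn (chr7:30751321-30751470) is on the plus strand.
Tchh: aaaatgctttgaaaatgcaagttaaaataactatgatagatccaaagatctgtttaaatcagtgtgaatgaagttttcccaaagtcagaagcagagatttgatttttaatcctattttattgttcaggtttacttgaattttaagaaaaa
Rptn: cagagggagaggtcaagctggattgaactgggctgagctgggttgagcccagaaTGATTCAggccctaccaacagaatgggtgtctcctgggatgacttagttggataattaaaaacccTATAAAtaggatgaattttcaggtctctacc
Prr9: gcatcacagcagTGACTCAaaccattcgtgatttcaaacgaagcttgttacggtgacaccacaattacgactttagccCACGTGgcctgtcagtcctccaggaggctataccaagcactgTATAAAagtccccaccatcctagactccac
Ivl: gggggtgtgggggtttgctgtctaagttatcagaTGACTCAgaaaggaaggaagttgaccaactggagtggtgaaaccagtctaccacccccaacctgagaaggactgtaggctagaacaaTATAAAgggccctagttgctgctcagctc
Lor: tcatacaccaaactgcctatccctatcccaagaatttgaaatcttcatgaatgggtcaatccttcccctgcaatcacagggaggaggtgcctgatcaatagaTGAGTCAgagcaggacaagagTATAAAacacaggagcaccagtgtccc
Sbsn: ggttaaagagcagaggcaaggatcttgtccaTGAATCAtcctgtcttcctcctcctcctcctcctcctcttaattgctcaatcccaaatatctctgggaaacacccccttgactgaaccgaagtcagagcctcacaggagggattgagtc

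Motifs were searched on both strands over 250 bases upstream of all 8 starts. The AP-1 motif TGANTCA, named for the Fos and Jun family, was present in 7 of the 8 genes, Tchh being the exception, against 6.75% of 32851 mouse promoters of that length. A TATA box, written TATAAA, was present in 6, all but Tchh and Sbsn, against 12.4%. In Rptn, Prr9, Ivl, Lor and Krtdap the TATA box began 27 to 31 bases before the RefSeq start, and in Flg 53 bases before it. For Flg and Krtdap, the RefSeq start lies inside the gene span given below. The Flg window ended at chr3:93273545, whereas its gene span begins at chr3:93273523. The 53 bases of Flg therefore depend on the start used. The E-box CACGTG, a motif that MYC can bind, occurred in Prr9 alone, against 6.02% of promoters, and the AP-2 motif GCCNNNGGC occurred in none, against 13.7%. No match overlapped one of another motif. Sbsn therefore shared the loose motif with genes of the opposite group difference. It shared the spelling TGAATCA with Flg and, read on the other strand, with Rptn. Tchh held none of the 4 motifs. These are matches of letters in a window and no measurement of binding.

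Among the 8 genes, the largest group differences were in 3 on chromosome 3, Tchh, Rptn and Prr9. Tchh (ENSMUSG00000052415.5, chr3:93442330-93449077, plus strand, GRCm38) encodes trichohyalin, the rod-like protein that fills inner root sheath cells and is crosslinked to their keratins. Values are given for replicate 1 and then replicate 2 of a group. Tchh stood at 2256 and 1035 scaled counts in the Control-PyMT libraries, against 65.4 and 63.7 in the MYC-PyMT libraries. The groups did not overlap, and the MYC-PyMT libraries were nearly equal. Means were 1646 ± 863 and 64.6 ± 1.18 (SD, n = 2 each), a ratio of 25.5. On the log2(scaled count + 1) scale used for all differences here, which understates changes of low genes, the difference was -4.54.

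Rptn (ENSMUSG00000041984.2, chr3:93393699-93399442, plus strand) encodes repetin, a relative of trichohyalin that is also crosslinked into envelopes. Rptn stood at 1827 and 311 in the controls, against 1.01 and 3.30 in MYC-PyMT. It was abundant in both Control-PyMT libraries and nearly absent from both MYC-PyMT libraries, where 4 reads were counted in all against 2320. The ratio of pooled reads was 491, with an exact 95% interval of 192 to 1805 that covers counting error only. Control-PyMT replicates themselves differed 5.88-fold, so the mean of 1069 ± 1072 (SD, n = 2) has an SD as large as itself.

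Prr9 (ENSMUSG00000056270.3, chr3:92122204-92123947, minus strand) encodes a small proline-rich protein of the same gene cluster. Prr9 stood at 2425 and 568 in the controls, against 0 and 8.79 in MYC-PyMT. Control-PyMT replicate 1 was again the highest library. MYC-PyMT replicate 1 had no read and replicate 2 had 8, against 3262 reads in Control-PyMT, a ratio of pooled reads of 345 with a 95% interval of 175 to 801. Together these 3 genes made up 91.7% and 87.2% of the summed level of the 7 genes other than Sbsn in the Control-PyMT libraries, but 66.7% and 38.3% in the MYC-PyMT libraries.

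**Figure D1:**
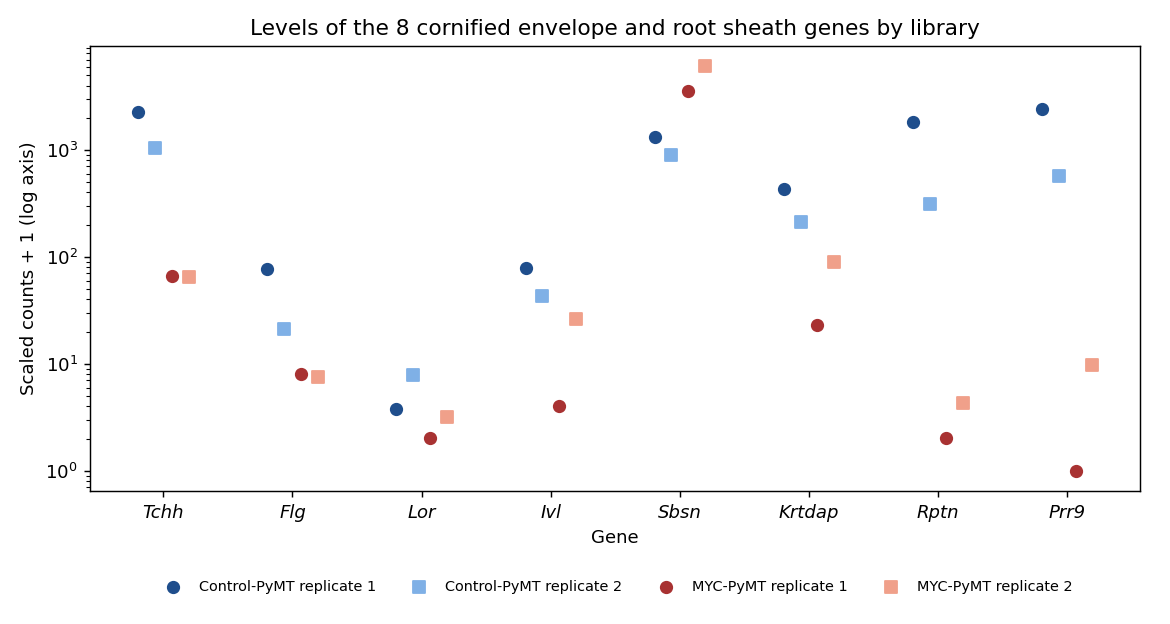
Scaled counts + 1 (log axis) of the 8 genes, one marker per library, circles and squares as named in the legend. Tchh, Rptn and Prr9 show the widest gaps between the groups, Lor stays under 7 scaled counts everywhere, and Sbsn is the one gene with both MYC-PyMT libraries above both Control-PyMT libraries.

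The classical envelope genes of the interfollicular epidermis were far lower than these 3 in Control-PyMT. Flg (ENSMUSG00000102439.2, chr3:93273523-93293686, plus strand) encodes profilaggrin, which is cut into filaggrin units that bundle keratin filaments. Flg stood at 76.7 and 20.4 in the controls, against 7.04 and 6.59 in MYC-PyMT. The groups did not overlap, and Control-PyMT replicate 1 was 3.76 times replicate 2. The ratio of group means was 7.12. Flg consists of near-identical repeats, and its annotated span holds the processed pseudogene Rplp0-ps1 on the same strand (30.9 and 33.1 scaled counts against 99.6 and 86.8), so its reads are uncertain.

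Ivl (ENSMUSG00000049128.7, chr3:92570902-92573735, minus strand) encodes involucrin, an early scaffold of the envelope. Ivl stood at 78.6 and 42.5 in the controls, against 3.02 and 25.3 in MYC-PyMT. The groups did not overlap, but the MYC-PyMT libraries differed 8.37-fold from each other, the widest spread within that group among the genes with reads in both libraries. Means of 60.5 ± 25.5 and 14.1 ± 15.7 (SD, n = 2 each) gave a ratio of 4.28. The log2 difference of -2.52 became -1.16 without MYC-PyMT replicate 1 and -3.87 without replicate 2.

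Lor (ENSMUSG00000043165.7, chr3:92080271-92083142, minus strand) encodes loricrin, the main protein of the mature epidermal envelope, and was barely detected. Its reads numbered 3 and 8 in the controls, against 1 and 2 in MYC-PyMT, or 2.81 and 6.79 against 1.01 and 2.20 scaled counts. The MYC-PyMT libraries were the lower ones, but with so few reads no fold is given. Lor was the 1 gene of the 8 that did not reach 10 scaled counts in at least 2 libraries. The other 7 did, of which Flg, Rptn and Prr9 did so through the Control-PyMT libraries alone.

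Sbsn and Krtdap are neighbours on chromosome 7 with Dmkn between them, and both encode secreted proteins of differentiating keratinocytes. Sbsn (ENSMUSG00000046056.14, chr7:30751471-30756134, plus strand), suprabasin, was measured at 1332 and 901 in the controls, against 3525 and 6067 in MYC-PyMT. Both MYC-PyMT libraries were above both Control-PyMT libraries, by 4.30-fold in the means, which were 1116 ± 304 and 4796 ± 1797 (SD, n = 2 each). Krtdap (ENSMUSG00000074199.7, chr7:30787896-30791097, plus strand), keratinocyte differentiation associated protein, went the other way, with 427 and 211 in the controls against 22.1 and 87.9 in MYC-PyMT. Its groups did not overlap. Its ratio of means was 5.81, and its MYC-PyMT libraries differed 3.97-fold. Dmkn, which encodes dermokine and begins 7622 bases after Sbsn and ends 6833 bases before Krtdap, was measured at 2025 and 1479 against 1020 and 1484, and its difference was not called (log2 difference -0.49, SE 0.24, limma adjusted p = 0.121). Of the 3 adjacent genes, 1 was thus higher, 1 was not called and 1 was lower in MYC-PyMT, the outer pair without a test.

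Over the 8 genes, both MYC-PyMT libraries lay below both Control-PyMT libraries in 7 and above them in 1. Among all genes tested these patterns were found in 38.7% and 37% of genes, and since the genes were chosen with this contrast in view nothing is read from the counts. Sbsn supplied 15.8% and 29.1% of the summed level of the 8 genes in the controls, against 97.3% and 96.8% in MYC-PyMT. Without Sbsn, the sum was 7093 and 2196 in the controls, against 99.6 and 198 in MYC-PyMT. With Sbsn the groups overlapped, at 8425 and 3097 against 3625 and 6265.

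Levels of different genes were set side by side per kilobase of annotated exon, which is a rough measure. It takes no account of uneven coverage along a transcript, and RNA integrity went down to 3.3. Exon lengths ran from 679 bases in Krtdap to 18829 in Flg, whose reads are uncertain. Lor rests on 11 reads in Control-PyMT. In Control-PyMT, Prr9 was the highest at a mean of 1265 ± 1110 scaled counts per kilobase, followed by Krtdap at 470 ± 225, Sbsn at 308 ± 84.0, Tchh at 283 ± 148 and Rptn at 258 ± 259 (SD, n = 2). Neighbours among those 5 did not differ beyond their spread, although Prr9 was the highest in both libraries. Ivl, at 31.5 ± 13.3, was below each of them in both libraries, and Lor and Flg came last at 2.70 ± 1.59 and 2.58 ± 2.11. In MYC-PyMT the order was led by Sbsn at 1323 ± 496, followed by Krtdap at 81.0 ± 68.5, Tchh at 11.1 ± 0.203, Ivl at 7.36 ± 8.19 and Prr9 at 3.72 ± 5.25, with Lor, Rptn and Flg each under 1 on average. Sbsn exceeded every other gene in both MYC-PyMT libraries, and Krtdap exceeded Tchh in both, whereas Ivl did not differ beyond its spread from Tchh above it or Prr9 below it. Within those limits, Flg and Lor, genes of finished epidermis, were the lowest per kilobase in the control tumours. Krtdap and Sbsn, also of differentiating keratinocytes, were among the 5 high ones with Prr9, Tchh and Rptn.

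The 2 Control-PyMT libraries were not alike for these genes. All but Lor were higher in replicate 1 than in replicate 2, and 5 of the 7 tested genes were so by 2-fold or more (Tchh, Flg, Krtdap, Rptn and Prr9), a step that 2.42% of all genes tested showed in that direction and 4.65% in the other. Ivl differed 1.85-fold and Sbsn 1.48-fold. In MYC-PyMT, 6 of the 8 genes were higher in replicate 2, Tchh and Flg being the exceptions. By 2-fold or more this held for 4 of the 7 tested genes (Ivl, Krtdap, Rptn and Prr9), against 3.4% of all genes tested, with 3% in the other direction. Counting error limits this, since the MYC-PyMT libraries held 1 and 3 reads of Rptn and 0 and 8 of Prr9. Ivl had 3 and 23 reads there, and Krtdap 22 and 80. The inner root sheath keratins showed the first pattern in 4 of 7 genes and the other cornified envelope genes in 10 of 18. Skeletal muscle genes went the opposite way in Control-PyMT, with 9 of 10 at 2-fold or more higher in replicate 2. What lies behind the spread was not tested.

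**Figure D2:**
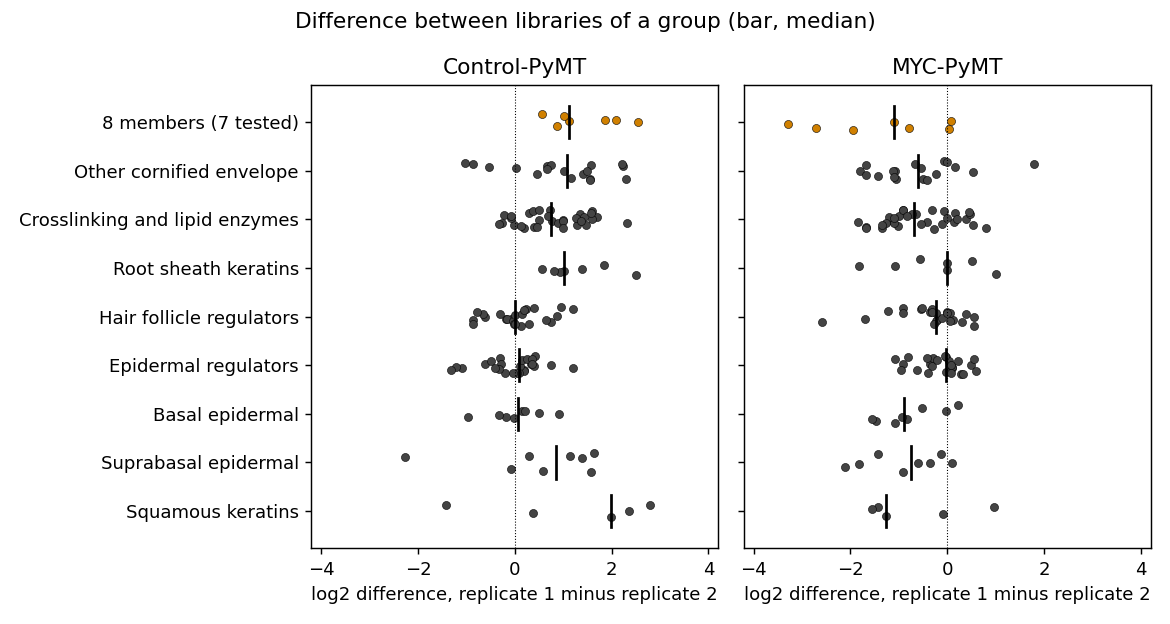
Difference in log2(scaled counts + 1) between replicate 1 and replicate 2 of Control-PyMT (left) and of MYC-PyMT (right), 1 point per gene in each list, with the bar at the median of the list. The sheath and envelope genes lie mostly to the right of 0 in Control-PyMT, with 5 of 7 tested members at 2-fold or more. In MYC-PyMT, 4 of the 7 members lie 2-fold or more to the left, among them Rptn and Prr9 with few reads.

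The inner root sheath keratins, which pair with trichohyalin in the sheath, mostly fell. Of 8 measured keratins of the sheath and companion layer, 7 were tested: 6 fell, 1 rose, and the median log2 difference was -6.71, beside -0.02 over all genes tested. Here 5 of the 7 reached the level needed for testing through Control-PyMT alone. Krt25 was measured at 470 and 246 in Control-PyMT and had no read in either MYC-PyMT library. Set against 3 reads in each MYC-PyMT library, it was at least 113-fold lower, and it is one of those 5. Krt73 fell from 1345 and 761 to 0 and 1.10, with 1 read in MYC-PyMT. Krt27 fell from 423 and 208 to 2.01 and 1.10. Krt71 fell less, from 253 and 172 to 35.2 and 52.7, and was picked for mention after its values were seen. Krt75, a companion layer keratin, rose from 33.7 and 5.10 to 69.4 and 247 (log2 difference 3.19, SE 0.79, limma adjusted p = 0.00817). Without Control-PyMT replicate 2 that call was lost (log2 difference 1.93, adjusted p = 0.0857), and without either Control-PyMT library 5 of the 6 lowered keratins were no longer tested, leaving 1 called lower.

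Other cornified envelope genes mostly fell as well. The table held 31 of the 53 listed genes, the others being not analysed here, and 18 were tested, 5 of them through Control-PyMT alone. Of these, 15 fell, none rose and 3 were not called, with a median log2 difference of -2.05. Without Control-PyMT replicate 1 the count was 5 of 13, and without replicate 2 it was 9 of 13. Tchhl1, the trichohyalin-like neighbour of Tchh at a distance of 19677 bases, fell from 238 and 79.0 to 0 and 1.10, and it too was tested through Control-PyMT alone. Crnn, encoding cornulin of squamous mucosa, fell from 135 and 28.0 to 0 and 2.20, and Hrnr, encoding the filaggrin-like hornerin, fell from 123 and 43.3 to 10.1 and 2.20. Calm4, a calmodulin-like gene of differentiating skin, fell from 1306 and 278 to 16.1 and 23.1. Lce6a, of the late cornified envelope family, was at 21.5 and 10.2 and had no read in MYC-PyMT, at least 5.02-fold lower. Besides Dmkn, Cdsn, which encodes corneodesmosin of the desmosomes of cornified cells, was not called, at 238 and 141 against 117 and 185 (limma adjusted p = 0.483). Another 13 genes of the list were under the level for testing. Members of the Lce and Sprr2 families are near-identical, and their reads may be shared.

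The enzymes that crosslink, process and seal the envelope were mixed. Of 32 tested, 15 fell, 2 rose and 15 were not called, with a median log2 difference of -1.23, and 3 were tested through Control-PyMT alone. Without Control-PyMT replicate 1, 5 of 29 fell. Asprv1, the retroviral-like protease that cuts profilaggrin, fell from 5450 and 2035 to 473 and 943 (log2 difference -2.32, SE 0.43, limma adjusted p = 0.00185). Sdr9c7, which acts on the skin's acylceramides, was at 56.1 and 17.8 and had no read in MYC-PyMT, at least 11.7-fold lower. Pnpla1, needed to make those acylceramides, fell from 63.6 and 25.5 to 0 and 2.20, with 2 reads in MYC-PyMT and a pooled read ratio of 41.5 (95% interval 11.2 to 348). Lipk, a lipase of the outer epidermis, fell from 114 and 80.7 to 12.1 and 13.2. Tgm5, encoding a transglutaminase, rose from 105 and 75.6 to 340 and 195 (log2 difference 1.52, SE 0.35, limma adjusted p = 0.00529). Aloxe3, a lipoxygenase of the lipid barrier, rose from 26.2 and 26.3 to 81.5 and 56.0 (adjusted p = 0.0162), a call lost without either Control-PyMT library (adjusted p = 0.0570 and 0.0579) or without MYC-PyMT replicate 1 (0.118). The abundant proteases St14, or matriptase, and Blmh, which degrades filaggrin, were not called.

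**Figure D3:**
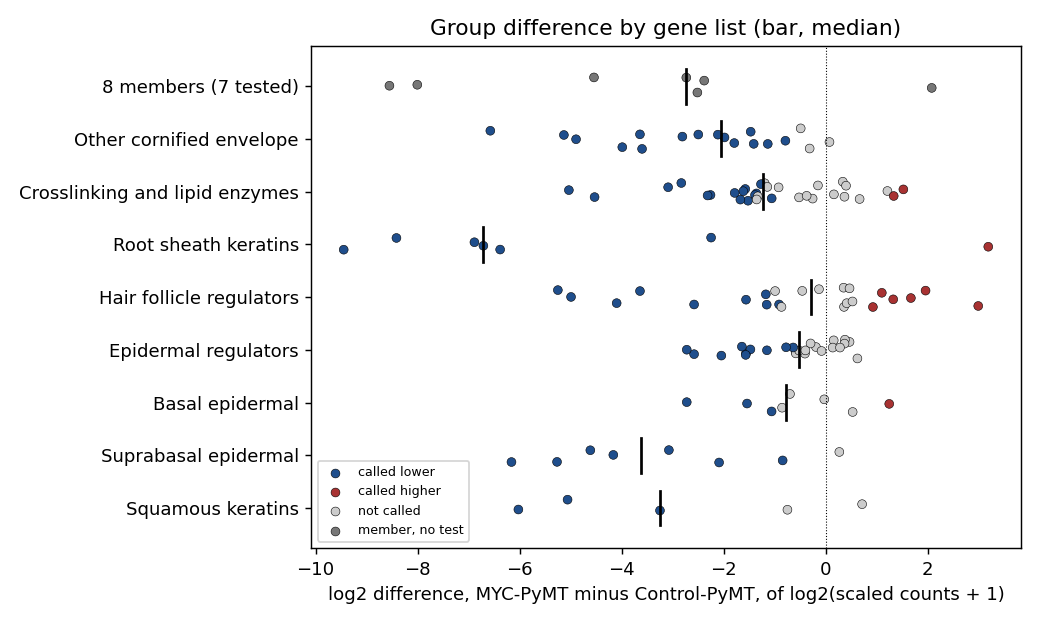
Group difference of each tested gene in log2(scaled counts + 1), MYC-PyMT minus Control-PyMT, with 1 point per gene, colour for the limma call and the bar at the list's median; the 8 genes of the account are drawn without a call. The sheath keratins and the other envelope genes lie mostly to the left of 0, with medians of -6.71 and -2.05, while hair follicle regulators fall on both sides, with a median of -0.30.

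Regulators of the hair follicle went in both directions: 9 of 24 tested fell, 6 rose and 9 were not called, with a median of -0.30, against background shares of 24.6% lower and 23.3% higher. Lgr6, a receptor marking stem cells of the follicle isthmus, fell from 4468 and 4469 to 155 and 125 (log2 difference -4.99, SE 0.21, limma adjusted p = 1.54e-06). Msx2, a homeobox regulator of hair differentiation, fell from 339 and 379 to 18.1 and 22.0. Shh, the follicle's Hedgehog ligand, was at 50.5 and 27.2 and had no read in MYC-PyMT, at least 12.3-fold lower. Gli1, a target of Hedgehog signalling, nevertheless rose from 11.2 and 21.2 to 56.4 and 70.3 (log2 difference 1.96, SE 0.44, adjusted p = 0.00483). Lef1, a partner of beta-catenin in hair formation, fell from 44.0 and 44.2 to 1.01 and 5.49, and Dlx3, a regulator of sheath and hair differentiation, fell from 117 and 68.8 to 10.1 and 19.8. Lhx2, a hair stem cell factor, rose from 1.87 and 4.25 to 19.1 and 46.2, and Edaradd, an adaptor of the ectodysplasin receptor, rose from 42.1 and 36.5 to 154 and 104. Shh and Lef1 were too low for testing without either Control-PyMT library, and Lhx2 without either MYC-PyMT library. Sox9 and Vdr, the most abundant genes not called, had adjusted p = 0.0668 and 0.153, and Sox9 was called lower with upper-quartile scaling (adjusted p = 0.0303).

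Of 25 regulators of epidermal differentiation, 10 fell, none rose and 15 were not called, with a median of -0.52. With 1 library left out, 8 to 10 fell and 0 or 1 rose. Trp63, encoding p63 of stratified epithelia and of basal mammary cells, fell from 1988 and 1790 to 195 and 414 (log2 difference -2.72, SE 0.32, limma adjusted p = 0.000138). Tfap2c, encoding an AP-2 factor, fell from 5556 and 6400 to 1430 and 1455. Prdm1, encoding BLIMP1 of the outer epidermis, fell from 365 and 285 to 77.5 and 151, a call lost without Control-PyMT replicate 1 (adjusted p = 0.0543). Grhl2, which acts on epithelial junction genes, was not called, and neither was Ehf (adjusted p = 0.0550), which TMM scaling called lower (adjusted p = 0.0342). Between the Control-PyMT libraries, 1 of the 25 genes was 2-fold or more higher in replicate 1 and 3 were so in replicate 2. The shares among all genes tested were 2.42% and 4.65%. The list's median log2 difference between these replicates was 0.09.

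The 6 genes of chromosome 3 lie in the epidermal differentiation complex, taken here from S100a1 to S100a10 (chr3:90511034-93564643, GRCm38). Tchh and Rptn are next to each other, 42888 bases apart, and Lor and Prr9 are neighbours 39062 bases apart. Of the other 69 protein-coding genes annotated there, 38 were in the table and 24 were tested, 7 of them through Control-PyMT alone. Among the 24, 17 fell, 1 rose and 6 were not called, with a median log2 difference of -1.70. By family, 7 of 12 S100 genes fell and 1 rose, with a smaller median of -0.79. The one that rose was S100a9, a partner of S100a8 in neutrophil calprotectin, at 564 and 205 against 886 and 1169 (log2 difference 1.58, SE 0.40, limma adjusted p = 0.00925), named for its direction after its values were seen. S100a8, whose promoter drives Cre, was not called, at 2338 and 639 against 1564 and 2524 (adjusted p = 0.260). Of 8 tested genes outside the S100, Sprr and Lce families, 7 fell. Only 1 of 10 measured Lce genes and 3 of 5 measured Sprr genes reached testing.

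**Figure D4:**
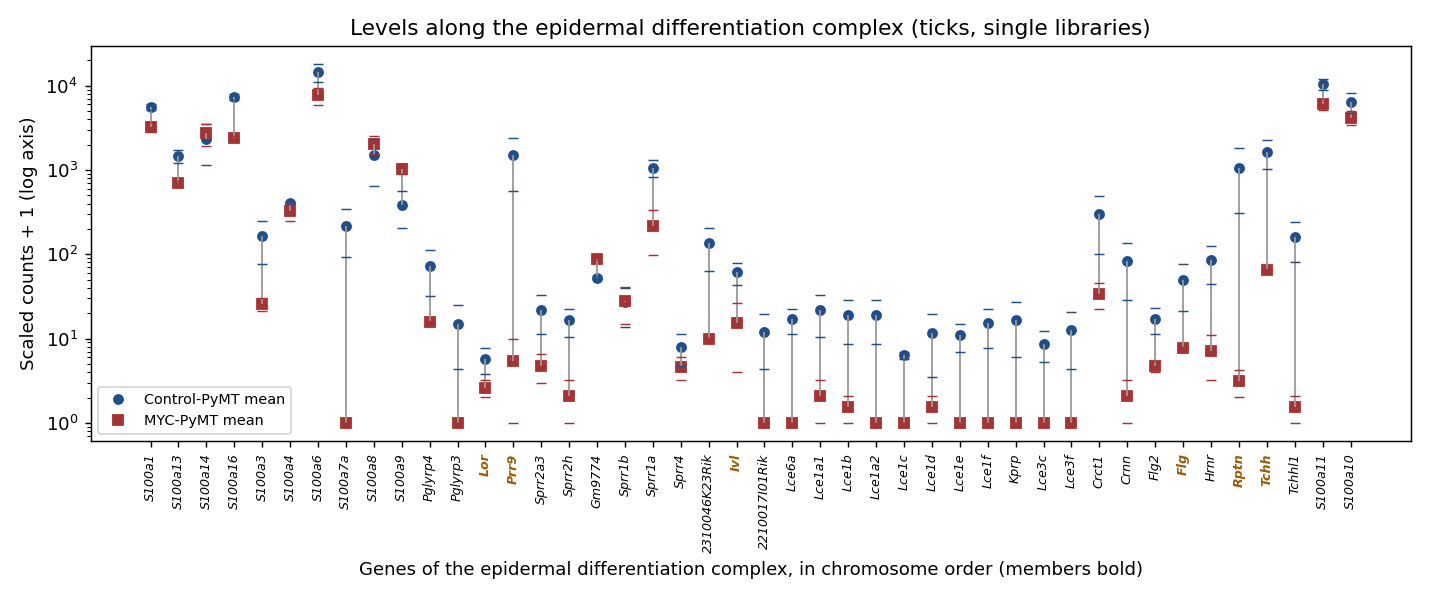
Scaled counts + 1 (log axis) of the measured genes of the epidermal differentiation complex in chromosome order, with circles for Control-PyMT means, squares for MYC-PyMT means, ticks for single libraries and the members in bold. Prr9, Sprr1a, Rptn and Tchh have the highest Control-PyMT means outside the S100 family, while S100a1, S100a16, S100a6, S100a11 and S100a10 are abundant in both groups.

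Markers of other cells went in different directions from list to list, and their part in the differences was not tested. Of 8 tested suprabasal epidermal genes 7 fell, with a median of -3.62 and summed levels of 2549 and 1336 in Control-PyMT against 271 and 325 in MYC-PyMT. Krt1 fell from 778 and 250 to 4.03 and 6.59, Krt10 fell from 634 and 421 to 107 and 136, and Krt2 was at 0 in both MYC-PyMT libraries. Without Control-PyMT replicate 1 the count was 3 of 5, and without replicate 2 it was 4 of 4. Basal epidermal genes were split, with 3 of 8 lower and 1 higher, and sums of 17373 and 15917 against 11639 and 23734. Without MYC-PyMT replicate 2, 5 were lower and 0 higher. Krt14 was that 1, at 4673 and 2481 against 4828 and 13476 (limma adjusted p = 0.0369). It lost the call when any library but MYC-PyMT replicate 1 was left out, and under TMM scaling (limma adjusted p = 0.0579). Krt14 was also not called higher with upper-quartile scaling, without the variance trend or in DESeq2. Krt5, its partner, was not called. Whether reads of this basal list came from skin or from basal mammary cells was not tested. Among 5 squamous keratins of hyperproliferative and mucosal epithelia 3 fell, with sums of 5087 and 2552 against 1624 and 4008. Basal epidermal and squamous keratin levels in MYC-PyMT were higher in replicate 2, as were Ivl, Krtdap and Sbsn.

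Hair shaft keratins were low. Of 13 listed, 5 were measured, 1 was tested, through Control-PyMT alone, and it was not called, with sums of 72.9 and 28.0 in the controls against 13.1 and 15.4 in MYC-PyMT. Of these, 3 were at 0 in both MYC-PyMT libraries (Krt33a, Krt84 and Krt35). Sebaceous gland genes summed to 417 and 448 against 510 and 471, and melanocyte genes to 339 and 285 against 369 and 369, with no gene called among the 5 and 2 tested. In the sebaceous list 1 gene was called higher without Control-PyMT replicate 1 or MYC-PyMT replicate 1, and in the melanocyte list 1 was without Control-PyMT replicate 2 or MYC-PyMT replicate 2. Skeletal muscle genes summed to 765 and 1882 against 1999 and 3516, and 4 of 10 rose. Leaving out 1 library moved that count widely: it was 1 without Control-PyMT replicate 1 and 10 without Control-PyMT replicate 2. In the same way it was 8 without MYC-PyMT replicate 1 and 2 without MYC-PyMT replicate 2.

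Mammary lineages differed too. All 7 myoepithelial genes fell, with a median of -4.29 and sums of 50850 and 53471 against 4196 and 5446. In that list the Control-PyMT libraries were close to each other, unlike for Tchh, Rptn and Prr9. Of 11 luminal genes 6 fell and 1 rose, with a median of -0.57, and Krt8 was not called. Leukocyte genes fell in 4 of 6, with sums of 4044 and 4186 against 2494 and 2412, and in 2 when any 1 library was left out.

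Over the 4 libraries, the genes nearest to the mean profile of Tchh, Rptn and Prr9 were Clca1, Tchhl1, Smr2, Krt26 and Krt1, by Euclidean distance between log2 profiles centred on their own means (0.53, 0.59, 1.07, 1.08 and 1.08). Clca1, a secreted protein of the calcium-activated chloride channel regulator family, was at 259 and 73.9 against 0 and 1.10. Smr2, a submaxillary gland gene, was at 152 and 66.3 against 0 and 1.10. Sbsn was nearest to Mest, an imprinted gene (distance 0.16, at 96.3 and 60.3 against 276 and 460), to Sox11, a developmental transcription factor (0.18, at 244 and 156 against 557 and 1110), and to Bok, a member of the BCL2 family (0.18, at 212 and 164 against 568 and 1095). For Flg the nearest were Pbp2, Fxyd4 and Pdcd1, at distances of 0.30 to 0.46. With 4 libraries such likeness is a description of a shared order of levels.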

How the data were processed

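Poly(A) RNA was sequenced from 4 mouse mammary tumour samples in stranded TruSeq libraries made from 500 ng of total RNA with 8 PCR cycles, per the labels' protocols. RNA integrity ran from 3.3 to 9.6 and is not tied to samples. Per the submitters' processing notes, HISAT2, DESeq2 and mm10 (GRCm38.p5) were used. Neither the counting tool nor its use of strand nor the annotation release was stated, so overlapping and antisense genes may share reads. The deposited values are a signal, read counts divided by the authors' size factor for each library and not by length. All values were whole multiples of 1 read within 0.01 reads, which returned the reads.

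GENCODE mouse release M21 matched 20463 of 20555 gene IDs. Genes with at least 10 scaled counts in at least 2 libraries were tested on log2(value + 1) with limma 3.58.1 in R 4.3.3 (variance trend, two-sided, Benjamini-Hochberg, threshold 0.05), checked on simulated data. Gene lists were written from general knowledge. The 8 genes, lists and tests were chosen with earlier results of these data known. From each pathway list were named up to 5 lower and 3 higher calls with the largest change and the 2 most abundant genes not called; from each marker list the 2 most abundant genes were eligible, and other markers (Krt2 and hair keratins) were named after their values were seen. One gene that this rule names is not reported here. A gene without reads was set against a floor of 3 reads per library (3.16 scaled counts as the MYC-PyMT mean). Alternatives were other pseudocounts, level filters and scalings, no trend, a replicate block, each library left out, and edgeR 4.0.16 and DESeq2 1.42.0 on the recovered reads.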

Additional observations from a re-analysis of the deposited data

How the results depend on the processing

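The groups do not overlap for any of the 8 genes, so the direction of their differences could not change when a library was left out. Leaving out 1 library moved the log2 difference of Rptn between -9.28 and -6.73, of Prr9 between -10.20 and -6.91, of Tchh between -5.11 and -3.98, of Krtdap between -3.70 and -1.76, of Flg between -3.31 and -1.45 and of Sbsn between 1.69 and 2.47. Among all genes, 3892 were called higher and 4118 lower, and leaving out 1 library gave 2566 to 3662 higher and 2753 to 3431 lower; edgeR called 3693 and 4232, and DESeq2 3669 and 3624. Upper-quartile scaling shifted the median log2 difference of all genes from -0.02 to -0.12 and the share of calls that were higher from 48.6% to 42.0%. The 15 other envelope genes called lower became 26 without a level filter, which adds low genes, and ranged from 5 to 15 with 1 library left out. The same left 1 to 3 enzymes higher and 5 to 20 lower, 0 to 1 sheath keratins higher and 1 to 6 lower, and 0 to 1 epidermal regulators higher; leaving out a library also takes genes under the level filter. Same-numbered libraries did not deviate together (correlation -0.089 over 16725 genes). With 2 libraries per group, this cannot decide whether the numbers pair them. The replicate block gave 3887 higher and 4152 lower calls, 19 enzymes lower and 3 higher, 5 basal epidermal genes lower, and 1 sebaceous and 1 melanocyte gene higher. A pseudocount of 5 also called 1 sebaceous gene higher, and without a level filter 2 hair shaft keratins were called lower (1 without the variance trend). Depth limits Lor, with 14 reads in all, and the Lce genes.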
